A study of Bos indicus and Bos taurus with 17 samples.

Results

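The gene expression of Kashmiri cattle was compared between peak and late lactation, as the level at D250 (day 250 in milk) over the level at D90 (day 90). The cells came from milk and were captured by the study with beads that carry an antibody against cytokeratin 18, a keratin of luminal epithelial cells, and poly-A RNA was sequenced. The labels give 3 Kashmiri samples per day and 17 samples of 2 breeds (Kashmiri and Jersey) and 3 days (D15, D90 and D250) in all, none of them treated. The deposited table holds 1 value per gene and group, an FPKM value computed by the authors (fragments counted per kilobase of gene, scaled to the depth of the library), so the values below have no replicates, no error and no test. A single cow could carry a group value, and differences are given as sizes only. Members were the gene names with at least 1 FPKM on either day and a value above 0 on both. There were 11379 of them among the 21631 distinct names of the table. The D90 milk was taken in July and the D250 milk in December. All 3 samples of D90 were labelled as 2nd lactation, while 2 of the D250 samples were labelled as 3rd and 1 as 2nd. Day, month and labelled lactation number cannot be told apart in this comparison. Of the other groups used below, Kashmiri D15 had 1 sample labelled as 2nd lactation and 2 as 3rd. Jersey D90 had 1 sample labelled as 2nd and 1 as 3rd, and all 3 Jersey D250 samples were labelled as 2nd. The study's methods describe repeated milk sampling of the same cows, all in one lactation, which goes against these labels. The labels do not tie a D90 sample and a D250 sample to 1 cow.

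During lactation the secretory cells of the mammary alveoli make milk fat, lactose and milk proteins, and tight junctions seal the layer that they form. Milk carries away some of these cells together with white blood cells: macrophages, lymphocytes and neutrophils. In the months after the peak, milk yield declines as secretory cells are lost and the remaining ones become less active. In RNA of such a mixture, fewer cells of a type and less RNA per cell cannot be told apart.

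The D250 group held more RNA of epithelial genes and less RNA of lymphocyte genes than the D90 group. The summed FPKM of 10 epithelial markers (among them KRT18, KRT19, CDH1, ELF5 and 3 claudins) was 664 at D90 and 2548 at D250, and each of the 10 was higher at D250. The sum of 10 T and NK cell markers was 1439 at D90 and 328 at D250, with all 10 lower at D250. These sums cover the chosen markers alone and not all RNA of a cell type. Single products of the secretory cell were far higher, with LALBA at 12933 FPKM and FABP3 at 2159 FPKM at D90. The 5 markers that all white blood cells share summed to 2266 FPKM at D90 against 799.6 FPKM at D250. The markers of other cells differed less. Macrophage markers summed to 483 and 491 FPKM, neutrophil markers to 419 and 531 FPKM, and myoepithelial markers to 8.57 and 8.12 FPKM. B cell markers summed to 67.0 and 26.9 FPKM, and those of red blood cells to 0.67 and 0.37 FPKM. KRT18 itself, the antigen of the capture, had 9.13 FPKM at D90 against 11.5 FPKM at D250, a ratio of 1.26.

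Over all 11379 genes, the median log2 ratio was 0.04, with quartiles of -0.49 and 0.60. A ratio of at least 2 was seen for 1688 genes (14.8%), and a ratio of at most 0.5 for 1296 genes (11.4%). These 2 shares are the background for every list below. Of the genes with at least 1 FPKM on both days, 10.3% were at least 2-fold higher and 10.5% at least 2-fold lower. The sum of FPKM over the whole table was 827916 at D90 and 533249 at D250, and cytosolic ribosomal protein genes made up 37.7% of the difference. Names listed at 0 at D250 held 45589 FPKM at D90, and names listed at 0 at D90 held 11381 FPKM at D250. As set out below, a value of 0 cannot be read as absence of the RNA. The part of these names in the difference, and in the scaling by the sum that follows, was not tested. Dividing each group by the sum of its named genes without the milk protein genes added 0.70 to every log2 ratio. The genes at least 2-fold higher then made up 37.1% of all, and those at least 2-fold lower made up 3.81%. The scalings by the upper quartile and by the median ratio of genes at 10 FPKM or more added 0.10 and 0.15. The number of reads behind a value is unknown, so no interval can be given.

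**Figure D1:**
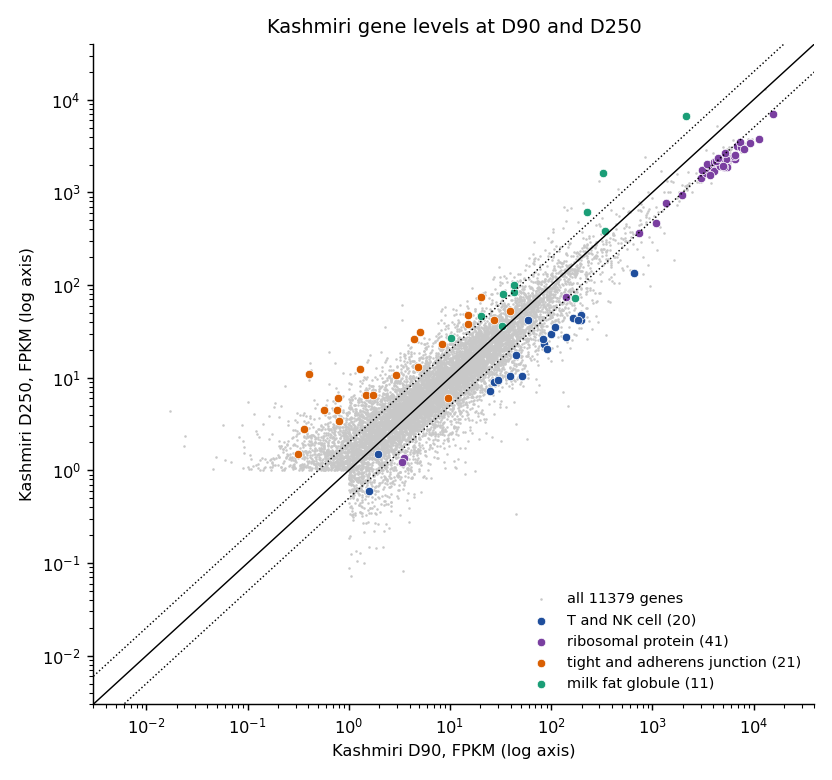
Kashmiri FPKM at D90 (x axis) and D250 (y axis), both on log axes, with 1 point per gene and 4 gene lists in colour. The solid line marks equal levels and the dotted lines a ratio of 2 either way. The junction genes lie above the diagonal with 1 exception (MLLT4), the T and NK cell genes and the ribosomal protein genes below it, and the fat globule genes XDH and FABP3 above the upper dotted line.

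The junction genes of epithelia were mostly higher at D250. Of 24 tight and adherens junction genes searched, 22 had an entry, and 21 of the 22 were higher at D250 than at D90. Among the 21 measured genes, 18 were at least 2-fold higher and none was 2-fold lower, with a median log2 ratio of 2.10. A total of 14 of them had at least 1 FPKM on both days, and of these 11 were at least 2-fold higher (median 1.75). CLDN1, a claudin that forms the seal of the tight junction, was at 0.41 FPKM at D90 against 11.1 FPKM at D250. OCLN, which encodes occludin, another membrane protein of the same junction, was at 1.28 and 12.3 FPKM, a 9.57-fold difference. CLDN4 was at 20.3 and 73.5 FPKM and CLDN7 at 14.9 and 38.2 FPKM, whereas CLDN3 differed less, with 27.1 and 41.7 FPKM. The scaffold gene TJP1 (zonula occludens protein) had 1.47 and 6.57 FPKM. In the adherens junction, which couples neighbouring cells to actin, CDH1 (E-cadherin) was at 5.05 and 31.2 FPKM, and its partner CTNND1 (p120 catenin) at 4.40 and 26.3 FPKM. CTNNB1, whose product beta-catenin also serves in WNT signalling and in other cell types, had 38.8 and 53.1 FPKM. MLLT4, which encodes the adapter afadin, was the one member lower at D250, with 9.48 and 5.97 FPKM.

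Desmosome genes, whose products anchor keratin filaments at the cell border, had the same direction. All 18 genes of the list for desmosomes, hemidesmosomes and gap junctions had an entry, and 17 were higher at D250. At least 1 FPKM on a day was reached by 14, each of them at least 2-fold higher, but 9 of the 14 were under 1 FPKM at D90 and so had to be higher to be counted. The other 5 were DSP, JUP, PKP3, ITGA6 and DST, with a median log2 ratio of 1.55. DSP (desmoplakin) was at 1.03 FPKM at D90 against 10.96 FPKM at D250. JUP (plakoglobin) was at 3.83 and 22.5 FPKM. EVPL (envoplakin, of the cornified envelope) was at 0.14 and 3.19 FPKM. LAMB3, LAMA3, GJB2 and GJB6 stayed under 1 FPKM on both days.

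The genes that mark an epithelial fate were also higher at D250. Of 23 such genes found, 22 were higher, and of 19 measured, 15 were at least 2-fold higher (median 2.22). Among the 13 with at least 1 FPKM on both days, 9 were at least 2-fold higher, with a median of 1.90. ELF5, the transcription factor that drives the secretory fate of alveolar cells, had 206 FPKM at D90 against 770 FPKM at D250. EHF, a related ETS factor, had 10.8 and 55.2 FPKM, and the splicing regulator ESRP1 had 1.59 and 7.76 FPKM. GATA3, a luminal factor that T cells use too, was the exception, with 9.80 and 7.73 FPKM. Of the keratins, KRT19 had 295 and 1319 FPKM, KRT7 had 69.0 and 197 FPKM, and KRT80 had 0.73 and 14.5 FPKM. The basal keratin KRT5 was near equal on the 2 days, with 6.03 and 5.03 FPKM, and KRT14 was under 1 FPKM on both. KRT8, the partner of KRT18, shares an entry with KRT4 and so has no value of its own.

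**Figure D2:**
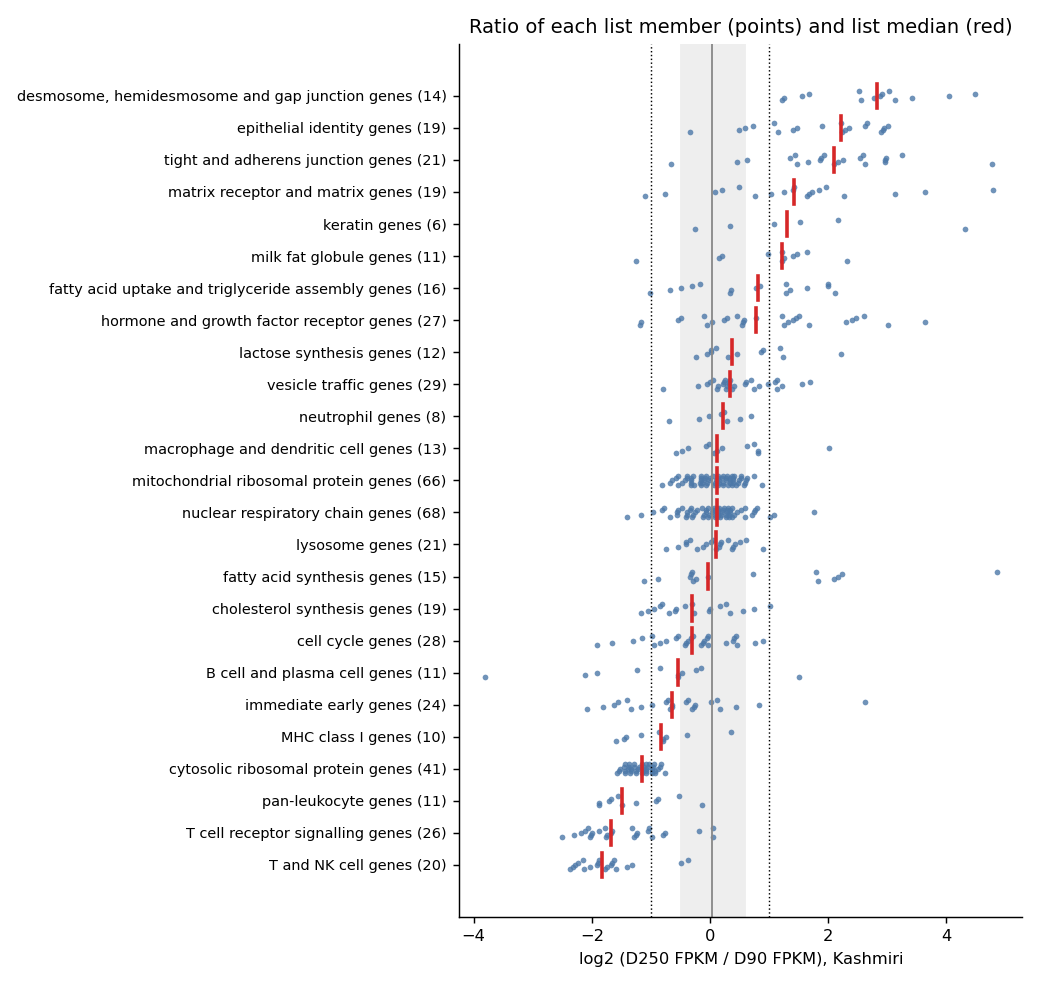
Log2 ratio of D250 over D90 FPKM in Kashmiri cattle (x axis) for the measured members of 25 gene lists (rows, number of genes in brackets), with the list median as a red bar. The grey line and band are the median (0.04) and quartiles (-0.49 and 0.60) of all genes, and the dotted lines mark a ratio of 2 either way. Medians run from -1.83 for T and NK cell genes to 2.82 for desmosome genes.

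Milk fat genes were higher at D250, though not all of them. The milk fat globule is a lipid droplet that leaves the cell wrapped in membrane. Of 11 fat globule genes, 7 were at least 2-fold higher and 1 was 2-fold lower, with a median log2 ratio of 1.22. XDH (xanthine dehydrogenase), which links the droplet coat to the apical membrane, was at 323 FPKM at D90 against 1604 FPKM at D250. PLIN2, which coats the droplet, was at 225 and 620 FPKM. ABCG2, a vitamin and urate transporter of the same membrane, was at 33.7 and 80.2 FPKM, and the mucin MUC15 at 10.2 and 27.0 FPKM. MFGE8 (lactadherin), which macrophages make as well, had 339 and 388 FPKM. NUCB1, a calcium-binding protein of the Golgi, had 171 and 71.8 FPKM and was the one gene of the list that was 2-fold lower.

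The genes of fatty acid synthesis did not share a direction. Of 15 measured genes 6 were at least 2-fold higher and 1 was 2-fold lower, and the median of -0.03 was near that of all genes. FASN (fatty acid synthase) had 142 FPKM at D90 against 639 FPKM at D250. ACACA, whose product makes malonyl-CoA, the unit added in each round, had 11.5 and 54.2 FPKM. ACSS2, which activates acetate, the main carbon source of milk fat in ruminants, had 105 and 376 FPKM. IDH1, which supplies NADPH for the pathway, had 68.0 and 291 FPKM. ME1 (malic enzyme), another NADPH source, had 0.05 and 1.41 FPKM, and THRSP, a regulator of lipogenesis, had 0.42 and 1.45 FPKM, so that both were under 1 FPKM at D90. Of the other enzymes, ACSS1, the mitochondrial form of ACSS2, was at 77.1 and 65.4 FPKM, and TECR, of chain elongation, at 58.7 and 47.9 FPKM. SREBF1, a transcription factor over these enzymes, was at 33.8 and 26.6 FPKM, its escort SCAP at 17.0 and 7.80 FPKM, and its retention factor INSIG1 at 98.8 and 80.2 FPKM. ELOVL5, which lengthens polyunsaturated fatty acids, was at 24.1 and 13.2 FPKM.

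For fatty acid uptake and triglyceride assembly, 7 of 16 genes were at least 2-fold higher and 1 was 2-fold lower (median 0.81). FABP3, the fatty acid carrier of the secretory cell, had 2159 FPKM at D90 against 6720.5 FPKM at D250, the largest gain in FPKM among single-symbol genes with at least 1 FPKM on both days. GPAM, which catalyses the first step of triglyceride assembly, was at 9.06 and 36.1 FPKM. The transporter SLC27A6 was at 2.76 and 11.99 FPKM, while LPL (lipoprotein lipase) differed less, with 43.8 and 78.6 FPKM. DGAT1, which adds the last fatty acid, was at 14.2 and 7.03 FPKM. FABP4 and FABP5, the forms of macrophages and fat cells, were at 154 and 125 FPKM and at 210 and 269 FPKM. Cholesterol synthesis had a median of -0.30 over 19 genes.

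Over 12 lactose synthesis genes the median log2 ratio was 0.38, with 3 at least 2-fold higher. LALBA (alpha-lactalbumin), the partner that turns galactosyltransferase into lactose synthase, was at 12933 FPKM at D90 against 13031 FPKM at D250, a ratio of 1.01. LALBA is listed at 0 at D15. B4GALT1, the enzyme itself, was at 52.0 and 96.7 FPKM, and UGP2, which makes UDP-glucose, at 49.7 and 114 FPKM. SLC2A1, the glucose transporter, had 17.9 and 24.6 FPKM. CSN1S1, CSN2, CSN3 and PAEP (3 caseins and beta-lactoglobulin) are listed at 0 on both days and give no ratio. GAPDH, which every cell uses, is also listed at 0, so such a 0 cannot be read as absence of the RNA.

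Receptors through which hormones act on the gland were mostly higher at D250. Of 27 measured genes, 13 were at least 2-fold higher and 2 were 2-fold lower, and the median log2 ratio was 0.77. There were 22 with at least 1 FPKM on both days, of which 8 were at least 2-fold higher and 2 were 2-fold lower (median 0.56). ESR1 (estrogen receptor alpha) was at 0.46 FPKM at D90 against 5.74 FPKM at D250. The growth factor receptor ERBB3 was at 1.06 and 8.54 FPKM and its partner ERBB2 at 0.79 and 4.37 FPKM. THRB, a thyroid hormone receptor, was at 1.04 and 5.53 FPKM, GHR (growth hormone receptor) at 0.32 and 1.56 FPKM, and PRLR (prolactin receptor) at 0.41 and 1.08 FPKM. Of the 27, 5 were under 1 FPKM at D90, among them ESR1, ERBB2, GHR and PRLR, and had to be higher to be counted. The 13 with at least 10 FPKM on either day had a median of 0.25. Summed over the 27 genes, the level was 361 FPKM at D90 and 357 FPKM at D250. The signal transducers below PRLR were not higher. STAT5A had 78.5 and 72.8 FPKM, and STAT5B had 27.6 and 19.0 FPKM. NR1H2 and NR1H3, the oxysterol receptors LXR beta and alpha, were the members that were 2-fold lower, NR1H2 with 102 and 45.4 FPKM and NR1H3 with 17.8 and 7.85 FPKM.

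Among single-symbol genes with at least 1 FPKM on both days, CYR61, a matrix-bound signalling protein, ranked first, with 2.30 FPKM at D90 against 35.3 FPKM at D250 (15.3-fold). THBS1 (thrombospondin) followed with 3.39 and 42.1 FPKM. DMKN (dermokine) had 1.61 and 17.6 FPKM, and RND3, a small GTPase that loosens actin fibres, had 1.16 and 11.1 FPKM. WWC1 (KIBRA), of the Hippo pathway, had 2.08 and 18.8 FPKM. CYR61 is a known target of YAP and TEAD, the transcription factors under the Hippo pathway. A list of such targets was drawn up after CYR61 had been seen and holds CYR61 itself. Of its 13 measured genes, 9 were at least 2-fold higher. However, 5 of the 13, F3 and TGFB2 among them, were under 1 FPKM at D90 and so had to be higher to be counted. The 8 with at least 1 FPKM on both days, CYR61 included, had a median of 0.64, and 4 were at least 2-fold higher. F3 (tissue factor) had 0.42 and 12.2 FPKM, TGFB2 had 0.75 and 7.68 FPKM, and CTGF had 2.07 and 5.07 FPKM. For LATS2 (3.61 and 3.25 FPKM), GADD45A (24.1 and 15.0 FPKM) and CRIM1 (3.69 and 3.95 FPKM) the ratio stayed under 2 either way. Among matrix genes and their receptors, 13 of 19 were at least 2-fold higher. However, 8 of the 19 were under 1 FPKM at D90 and so had to be higher to be counted. Of the 11 with at least 1 FPKM on both days, 5 were at least 2-fold higher (median 0.75). The hyaluronan receptor CD44, which leukocytes carry at a high level, was the one that was 2-fold lower, with 427 and 200.4 FPKM.

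**Figure D3:**
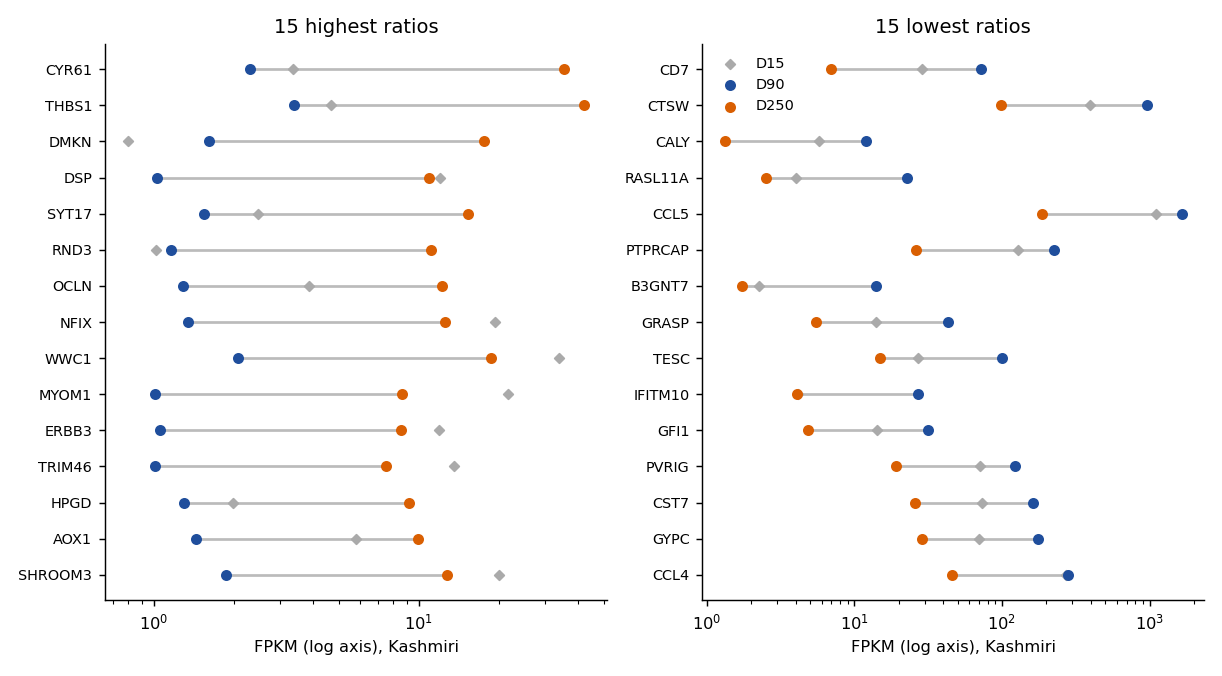
FPKM (log axis) of the 15 single-symbol genes with the highest (left) and the 15 with the lowest (right) ratio of D250 over D90 among those with at least 1 FPKM on both days. Blue points are D90, orange points D250 and grey diamonds D15, all Kashmiri. On the left some genes were as high at D15 as at D250 (DSP, WWC1), while CYR61 and THBS1 were near their D90 level at D15.

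The genes higher at D250 did not share their level at D15, which was measured in separate samples. For KRT19, ELF5, XDH, FABP3 and FASN the D15 group had the highest of the 3 values, with 3195 FPKM for KRT19, 1799 FPKM for ELF5, 1953 FPKM for XDH, 10560.5 FPKM for FABP3 and 829 FPKM for FASN. All 11 fat globule genes were lower at D250 than at D15. A different profile was found for CLDN1 (0.17 FPKM at D15), KRT80 (0.30 FPKM) and CYR61 (3.35 FPKM), which were low at D15 as well as at D90. To describe such genes, those at D250 with at least 4 times the level of each of the other 5 groups, Jersey included, were listed, a rule set after these values were seen. There were 42 of 8985 single-symbol genes (0.467%), and in 36 of them all other groups were under 1 FPKM. By the same rule 25 genes stood out in Kashmiri cattle at D90, 86 at D15, and 222 in Jersey cattle at D250. The 42 genes include LMO7, an actin-linked junction protein, with 14.4 FPKM at D250 and at most 0.59 FPKM elsewhere, and PALMD (palmdelphin), with 11.1 FPKM and at most 1.22 FPKM elsewhere. HSPB8, a small heat shock protein, had 9.37 FPKM against at most 0.60 FPKM, and CAV1, the coat protein of caveolae, had 4.09 FPKM against at most 0.78 FPKM. The calcium channel gene TRPV6 had 2.65 FPKM against at most 0.14 FPKM, and GJA1 (connexin 43) 1.53 FPKM against at most 0.11 FPKM. Whether they came from 1 of the 3 samples was not tested.

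T and NK cell genes were the list with the lowest ratios. All 22 genes with an entry were lower at D250. Of the 20 measured, 18 were at least 2-fold lower and none was higher, with a median log2 ratio of -1.83 against 0.04 for all genes. CD3E, a chain of the T cell receptor complex, was at 659 FPKM at D90 against 135 FPKM at D250. CD3D was at 198 and 42.1 FPKM, CD3G at 164 and 44.6 FPKM, and CD2, an adhesion receptor, at 141 and 27.3 FPKM. Both coreceptors were lower, CD4 with 98.9 and 29.6 FPKM and CD8A with 27.2 and 9.06 FPKM. PRF1 (perforin), the pore-forming protein of cytotoxic granules, was at 52.0 and 10.4 FPKM. IL7R and NCR1 were within 2-fold, with 58.8 and 41.6 FPKM for IL7R and 1.96 and 1.51 FPKM for NCR1. After rescaling to the sum, 12 of the 20 remained at least 2-fold lower, and the median was -1.13.

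A list of T cell receptor signalling genes drawn up after the values were seen, of which several, CD247, ZAP70, CD28, CD4 and CD8B among them, stand in the list above too, had 20 of 26 genes at least 2-fold lower (median -1.67). The constant region genes of both receptor types were lower at D250. TRAC, of the alpha-beta receptor, was at 419 and 105 FPKM, and TRDC, of the gamma-delta receptor, which is frequent in cattle, was at 378 and 66.3 FPKM. The adapter LAT was at 68.2 and 15.8 FPKM, the kinase FYN at 184 and 50.1 FPKM, and the checkpoint receptor PDCD1 at 27.3 and 5.55 FPKM. BCL10, PTPN6 and VAV1, which other leukocytes or epithelia use too, were near equal on the 2 days, PTPN6 with 46.7 and 48.2 FPKM. Among the 15 lowest ratios of single-symbol genes with at least 1 FPKM on both days, several belong to genes known from lymphocytes. CD7 was at 71.6 and 6.97 FPKM (10.3-fold lower), and CTSW, a protease of cytotoxic lymphocytes, at 954 and 98.4 FPKM. CST7 (cystatin F) was at 162 and 25.6 FPKM and PTPRCAP, which binds the phosphatase CD45, at 225 and 26.2 FPKM. The chemokine CCL5 was at 1649 and 187 FPKM, and CCL4 at 280 and 46.2 FPKM. In Jersey cattle CCL5 was at 1710 and 177 FPKM, and CCL4 at 1324 and 422 FPKM. The 10 T and NK cell markers summed to only 165 and 86.8 FPKM there. Which cells gave the RNA of these chemokines was not tested.

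Genes shared by all leukocytes were mostly lower at D250. Of 11 measured, 7 were at least 2-fold lower (median -1.49), among them CORO1A, an actin regulator, with 500 and 153 FPKM, and LSP1 with 254 and 68.6 FPKM. PTPRC (CD45) was at 166 and 87.9 FPKM, and LCP1 (plastin) at 191 and 174 FPKM. In contrast to the lymphocyte genes, macrophage and neutrophil genes were near the median of all genes. The median log2 ratio was 0.12 for 13 macrophage and dendritic cell genes and 0.21 for 8 neutrophil genes. CD68, of macrophage lysosomes, was at 281 FPKM at D90 against 268 FPKM at D250, and CD14, the receptor for bacterial lipopolysaccharide, at 69.5 and 68.3 FPKM. MRC1 (mannose receptor) was the one gene of both lists past 2-fold, with 0.97 and 3.93 FPKM. S100A8 and S100A9, the calprotectin chains of neutrophils, were at 74.3 and 106 FPKM and at 65.7 and 107 FPKM. B cell genes had 4 of 11 at least 2-fold lower and 1 higher, with a median of -0.54. CD79A, a chain of the B cell receptor, was at 42.5 and 9.77 FPKM.

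MHC class I genes, which present peptides to cytotoxic T cells and are present on nearly all cells, were mostly lower at D250 where measured. Of 10 measured genes 4 were at least 2-fold lower, and the median log2 ratio was -0.84. B2M (beta-2 microglobulin), the shared light chain, was at 7468 FPKM at D90 against 2723 FPKM at D250. TAP1, which carries peptides into the endoplasmic reticulum, was at 119 and 39.7 FPKM, and PSMB9, of the immunoproteasome, at 197 and 73.5 FPKM. The entry that joins BOLA-A with 4 unnamed gene identifiers had 986 and 292 FPKM. Other class I entries had the opposite direction but gave no ratio. JSP.1 is listed at 0 at D90 and at 2.89 FPKM at D250. An entry that joins JSP.1 with unnamed gene identifiers is listed at 0 at D90 and at 2351 FPKM at D250. How reads were shared among these entries was not tested. After rescaling to the sum the median of the list was -0.14, and none of the 10 genes was 2-fold lower. T and NK cell markers differed by 4.39-fold between the same groups, and their part in the class I values was not tested.

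The ribosomal protein genes were lower at D250. Of the 15 single-symbol genes with the largest losses in FPKM among those with at least 1 FPKM on both days, all but B2M encode cytosolic ribosomal proteins. Their share of all FPKM was 23.7% at D90 and 15.9% at D250. Each of the 41 measured genes was lower at D250, and 30 were at least 2-fold lower. The log2 ratios ran from -1.57 to -0.76, with a median of -1.15. RPLP1, of the ribosomal stalk, had 15713 FPKM at D90 against 7042 FPKM at D250. RPS12 had 11287 and 3804 FPKM, RPS28 had 9313 and 3436 FPKM, and RPL32 had 6553 and 2293 FPKM. After rescaling to the sum none of the 41 was 2-fold lower, and their median was -0.45 where the median of all genes was 0.74. Translation factors differed less, with a median of -0.32 over 22 genes. TPT1 (223 and 56.6 FPKM) and EIF3E (393 and 183 FPKM) were at least 2-fold lower, while PABPC1, the poly-A binding protein, was at 512 and 686 FPKM. The 66 measured mitochondrial ribosomal protein genes had a median of 0.12, and none passed 2-fold either way.

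The lists for the respiratory chain, the proteasome, lysosomes and involution stayed close to the median of all genes. Those for apoptosis, the cell cycle and immediate early genes had medians below it. For 68 nuclear genes of the respiratory chain the median log2 ratio was 0.11, with 3 at least 2-fold higher and 2 lower. For 35 proteasome genes it was -0.04, with 2 lower. None of 21 lysosome genes passed 2-fold, and their median was 0.10. Genes of STAT3 signalling and of involution, the regression of the gland after milking ends, had a median of 0.12 over 16 measured genes. STAT3 had 33.8 and 40.6 FPKM, and SOCS3, its feedback inhibitor, had 16.7 and 9.79 FPKM. OSMR, the oncostatin M receptor, was the one gene past 2-fold, with 1.27 and 3.66 FPKM. Apoptosis genes had a median of -0.36 over 17 genes, with BID (122 and 47.7 FPKM) and BCL2A1 (74.0 and 33.2 FPKM) at least 2-fold lower. Of 28 cell cycle genes, 4 were at least 2-fold lower, where 11.4% of all genes were. They were CCND3, a cyclin of the G1 phase, with 199 and 52.9 FPKM, CDKN1A with 131 and 41.8 FPKM, CDKN1B with 30.5 and 13.7 FPKM, and MCM3 with 16.5 and 6.69 FPKM. MKI67, the marker of dividing cells, was low on both days, with 2.20 and 2.86 FPKM. Immediate early genes, which respond within minutes to a stimulus, had 7 of 24 at least 2-fold lower and 1 higher, with a median of -0.65. DUSP2, a phosphatase of lymphocytes, was at 275 and 65.2 FPKM, and FOS at 69.5 and 27.5 FPKM. KLF4 was the one that was higher, with 2.13 and 13.1 FPKM.

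The ratio depended on the level of a gene. Genes with a geometric mean under 1 FPKM had a median log2 ratio of 1.15 (617 genes), and those between 1 and 3 FPKM one of 0.34 (2415 genes). By the limit of 1 FPKM on either day, each of these 617 genes was under 1 FPKM on 1 day only. The size of their median therefore comes in part from this limit. Between 10 and 30 FPKM it was -0.11, between 300 and 1000 FPKM -0.50, and from 1000 FPKM upward -1.04 over 101 genes. Without the 36 ribosomal protein genes in the last class, the median of the other 65 genes was -0.96. The median over all genes thus averaged opposite directions at low and high levels, and 636 of the 1688 genes at least 2-fold higher were under 1 FPKM at D90. The T and NK cell genes had a median level of 84.5 FPKM at D90, and the class from 30 to 100 FPKM had a median log2 ratio of -0.19. The tight and adherens junction genes had a median level of 2.92 FPKM at D90 and 11.1 FPKM at D250. The class from 1 to 3 FPKM had a median of 0.34, and the class from 3 to 10 FPKM one of 0.09.

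**Figure D4:**
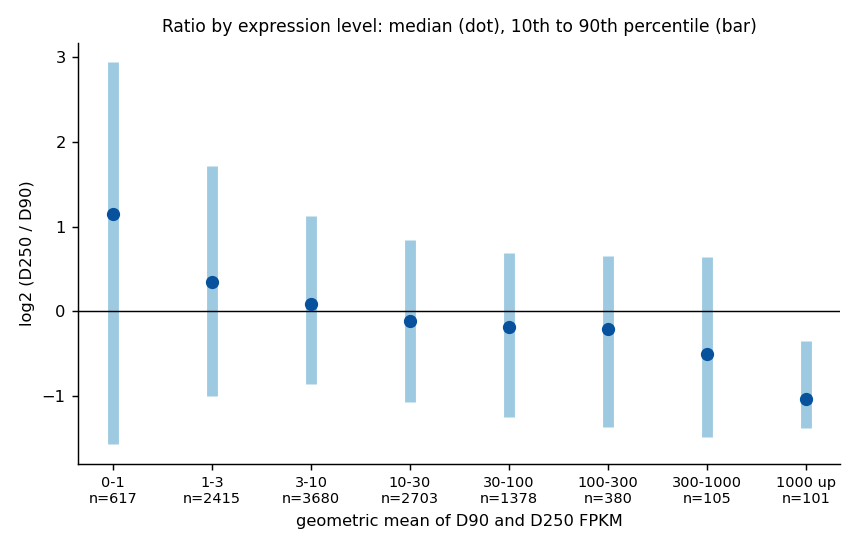
Median (dot) and 10th to 90th percentile (bar) of the log2 ratio of D250 over D90 in Kashmiri cattle (y axis), for genes in 8 classes of the geometric mean FPKM of the 2 days (x axis). The medians go from 1.15 in the lowest class to -1.04 in the highest. Each gene of the lowest class was under 1 FPKM on 1 day and at 1 FPKM or more on the other.

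Jersey cattle offer the same 2 days from other samples, 2 at D90 and 3 at D250. Across the 10317 genes measured in both breeds, Pearson's r of the log2 ratios was 0.37, as a description across genes that share their levels and the processing. The epithelial lists were higher at D250 in Jersey cattle too, with a median of 2.02 for epithelial identity genes, 2.22 for fat globule genes and 1.26 for tight and adherens junction genes. KRT19 had 38.2 and 835 FPKM there, and ELF5 had 12.6 and 349 FPKM. The T and NK cell genes had a median of -0.27 in Jersey cattle, with CD3E at 31.7 and 19.5 FPKM, so that their level was already low at D90. The pan-leukocyte genes had a median of 0.26, and the ribosomal protein genes one of 0.15. Neutrophil genes had a median of 1.25, with S100A8 at 1276 and 3034 FPKM. Of the 1340 genes at least 2-fold higher in Kashmiri cattle and measured in both, the Jersey median was 1.06. Of the 988 at least 2-fold lower it was -0.04. For comparison, the Jersey median was 0.16 over all genes measured in both breeds. It was 0.18 over all 10901 genes measured in Jersey cattle. CYR61 (2.41 and 2.49 FPKM) and THBS1 (53.1 and 42.1 FPKM) were near equal on the 2 days in Jersey cattle. Differences between the breeds were not tested.

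**Figure D5:**
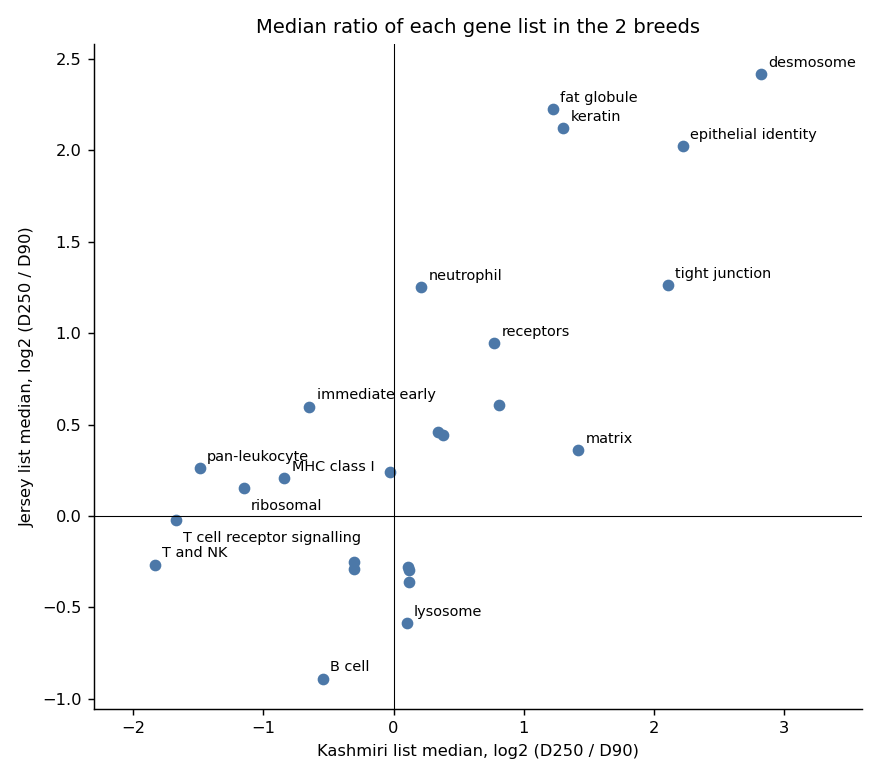
Median log2 ratio of D250 over D90 in Kashmiri cattle (x axis) and Jersey cattle (y axis), 1 point per gene list, for the 25 lists of the strip plot. The epithelial and fat globule lists lie above 1 on both axes, while the T and NK cell genes (-1.83 and -0.27) and the ribosomal protein genes (-1.15 and 0.15) lie far below 0 on the Kashmiri axis and near 0 on the Jersey axis.

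Some names are listed at 0 on 1 of the days and have no ratio. Of the 11414 names with at least 1 FPKM on a day, 19 were listed at 0 at D90 and 16 at D250. The one single-symbol gene with at least 50 FPKM on the other day was SPP1 (osteopontin), a milk phosphoprotein, which is listed at 4072 FPKM at D90 and at 0 at D250. It is also listed at 0 in Jersey cattle at D90 and at 3051 FPKM at D250.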

How the data were processed

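Milk cells of 3 Kashmiri samples per day were sequenced by the authors as poly-A libraries. They aligned the reads to the bovine assembly UMD3.1, a taurine genome, with Bowtie and TopHat and made the deposited FPKM with Cufflinks and Cuffdiff, 1 value per group of breed and day. Of 61264 entries, 25121 carried a gene name, and the entry with the highest mean over the 6 groups stood for a repeated name. Entries without a name were left out. Ratios of D250 over D90 were plain ratios, without a pseudocount, of genes with at least 1 FPKM on either day. A ratio of 0 or without a denominator was not formed. Members and gene lists were chosen with earlier results of these data known. The lists for T cell receptor signalling, amino acid breakdown and YAP targets were added after the values were seen. Kinase genes named like ribosomal proteins were left out of that list after their values were seen. A list gene that shares an entry with another gene got no value. Genes were named by rule: the 15 highest and lowest ratios and differences among single-symbol genes with at least 1 FPKM on both days, up to 4 genes per list by ratio and 4 by level, names listed at 0 with at least 50 FPKM on the other day, and list members whose role is described. Alternatives were other scalings, pseudocounts of 1 and 0.1, other limits, a 4-fold ratio and other entries. The code was tested on simulated data. The work ran in Python 3.11.15, with pandas 2.3.3 for the tables, numpy 2.4.6 for the statistics and matplotlib 3.10.9 for the plots. No column of the table was left unmatched, and no sequence or coordinate was used here.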

Additional observations from a re-analysis of the deposited data

Results flagged for a closer look

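The entries without a gene name, which no comparison above uses, held more low values at D250. Of the 36143 such entries, 84.4% were above 0.05 FPKM in Kashmiri cattle at D250, against 25.8% at D90 and 24.3% at D15. Jersey cattle had 28.7%, 37.0% and 55.2% of the entries above this level on the 3 days. The median of these entries in Kashmiri cattle was 0.01 FPKM at D90 against 0.11 FPKM at D250, and their share of all FPKM was 4.72% and 7.65%. Among the named genes, 5270 were listed at 0 at D90 and 4048 at D250, and the genes under 1 FPKM at D90 are those with the highest ratios in the report. The part of this low signal in those ratios was not tested.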

How the results depend on the processing

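With FPKM divided by the sum of named genes without milk protein genes, 4223 genes were at least 2-fold higher and 434 lower. With ribosomal protein genes also left out of the sum, an alternative chosen after seeing the data, the counts were 3521 and 551. With at least 0.01 FPKM in either group the counts were 3112 and 1980, with at least 10 FPKM 496 and 806, and with a 4-fold ratio 465 and 248. The higher genes numbered 1022 with a pseudocount of 1 and 1052 with at least 1 FPKM in both groups. Under the sum scaling the list medians became 1.92 (fat globule), 2.80 (tight and adherens junction), 3.52 (desmosome), 2.92 (epithelial identity), 1.47 (receptors), -0.14 (MHC class I), -1.13 (T and NK cell), -0.79 (pan-leukocyte) and -0.45 (ribosomal protein). With a pseudocount of 1 the desmosome median was 1.29 and that of epithelial identity 1.13. With limits chosen after seeing the data, the desmosome median was 1.55 (1 FPKM in both groups) and that of epithelial identity 1.48 (10 FPKM in either). No paired analysis was possible because the table gives 1 value per group, and no sample could be left out. The depth behind each value is unknown.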

Other observations

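The breakdown of branched-chain and aromatic amino acids, threonine and glycine had not been described above. In a list of 30 such genes, drawn up after some of its members had been seen among the large gains, 26 of 27 genes found were higher at D250, and 10 of 23 measured were at least 2-fold higher, counts that the choice of the list favours. The median log2 ratio was 0.96. BCKDHA, a subunit of the complex that commits branched-chain amino acids to breakdown, was at 27.7 FPKM at D90 against 91.8 FPKM at D250. HIBADH, of valine breakdown, was at 21.4 and 81.1 FPKM. GCAT, of threonine breakdown, was at 26.5 and 117 FPKM. BCAT1, the cytosolic transaminase, was the one gene that was lower, with 2.87 and 2.37 FPKM. In Jersey cattle the list had a median of 0.44.

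Some genes with large gains belong to none of the lists above. SOX10, a transcription factor of the neural crest that mammary epithelium also uses, was at 8.41 and 54.6 FPKM, and S100B at 104 and 404 FPKM. The trefoil factor TFF3 was at 141 and 492 FPKM, and DNAJC12, a cochaperone, at 135 and 695 FPKM. Each of these 4 was higher at D15, at 98.1, 316, 1898 and 1390 FPKM, than at D90, and of the 4 only S100B was lower at D15 than at D250. SOX10 was named after its value was seen.

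Among the genes of the circadian clock, whose levels vary with the hour of day, PER1 was at 41.9 FPKM at D90 against 12.9 FPKM at D250, and HLF at 3.47 and 10.7 FPKM. Of 14 measured clock genes, 4 were at least 2-fold higher and 1 was 2-fold lower. The hour of sampling is not given in the sources used here. Linker histones differed in direction, with H1F0, which resting cells hold, at 12.7 and 61.5 FPKM, and H1FX at 400 and 110 FPKM. Transport genes for minerals were mixed, with the zinc transporters SLC30A4 (0.73 and 2.65 FPKM) and SLC39A8 (24.2 and 72.0 FPKM) higher and the calcium sensor STIM1 (18.0 and 7.48 FPKM) lower. PIGR, which carries antibodies into milk, was at 43.9 and 72.2 FPKM, and CCL28, which draws plasma cells to the gland, at 4.98 and 15.4 FPKM, whereas JCHAIN, of plasma cells, was at 11.1 and 2.93 FPKM.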
